A study of Mus musculus with 16 samples.

Results

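The transcription factor families that pattern the embryo were followed in the adult atria: the Hox, Tbx, Fox, Sox, Gata, Irx, Mef2 and Hand families and musculin (Msc). Their probes were chosen by gene symbol, from the Hoxa to Hoxd, Tbx, Foxa to Foxs, Sox, Gata, Irx, Mef2 and Hand genes plus Msc, without Tbx3, Tbx5 and Tbx18. This gave 176 probes of 122 genes, out of 25697 probes on the array and 16593 named genes. Fox had 61 probes of 41 genes, Hox 50 of 38, Sox 28 of 16, Tbx 12 of 8, Mef2 8 of 4, Gata 7 of 6, Irx 7 of 6, Hand 2 of 2 and Msc 1 of 1. For all 176 probes the annotated symbol was the RefSeq symbol of the annotated gene.

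The question was whether left atrium (LA) and right atrium (RA) differ in these genes. Each of 16 Illumina MouseRef-8 arrays held the RNA of 1 atrium without pooling: 4 LA and 4 RA from mice of the MF1 strain (the dataset MF1_12), and as many from the Swiss Agouti strain (SA_12). The study counts 4 mice for each dataset, which would make its LA and RA arrays the atria of the same animals. The main test did not pair them. The mice of both datasets were untreated animals of outbred strains, labelled 12 months old, although an age of 12 weeks stands for Swiss Agouti in the text of the study's methods. The study lists the MF1_12 mice as male and the SA_12 mice as female, so that strain and sex cannot be told apart. The deposited values are on the log2 scale and were set by the authors to the median of each probe over samples. A value of 0 is thus a reference point, but not for every probe the middle of the arrays used here. For Sox18, most arrays lay below 0 in each dataset. Levels of expression, or whether a gene was detected at all, cannot be read from the values. The number of arrays limits the precision. A log2 difference below is LA minus RA, negative where RA is higher, and a probe passed the test at an adjusted p under 0.05 (limma, Benjamini-Hochberg over all 25697 probes) together with a fold above 1.5. MF1_12 LA replicate 2 varied more around its group than the other arrays, with an SD over probes of 0.226 against 0.0951 to 0.154. The atrial muscle markers Myl7 and Nppa had log2 differences of -0.12 and -0.01 in MF1_12 and of -0.21 and -0.04 in SA_12. Among all 7 atrial muscle genes listed, LA was higher for 3 genes of MF1_12 and for 4 of SA_12, and 0 passed. Kcnj3, for example, had 0.18 in MF1_12 and 0.16 in SA_12. A Myh6 probe had 0.29 in SA_12 (adjusted p = 0.0177, limma) at a fold of 1.22, while the other Myh6 probe had -0.06 there. Of 5 ventricular muscle genes, 0 passed in MF1_12 and 1 in SA_12. That gene was Myl2, at -4.25 in SA_12 (adjusted p = 0.0352, limma) and -1.08 in MF1_12, while Myl3 had 1.36 in MF1_12 (adjusted p = 0.0856) and -0.16 in SA_12, and Myh7 -0.10 and 0.12.

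Each of these families binds DNA through its own domain. Hox and Irx proteins carry homeodomains, Tbx proteins a T-box, Fox proteins a forkhead domain, Sox proteins an HMG box, Gata proteins zinc fingers and Mef2 proteins a MADS box, while Hand proteins and Msc are basic helix-loop-helix (bHLH) factors. Gata4, Gata5, Gata6, Tbx20, Hand2 and Mef2c are known for building the embryonic heart. Hox genes set position along the body axis, and Sox7, Sox17 and Sox18 act in endothelial cells.

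Very few of these factors differed between the atria by the test. In MF1_12, 2 of 176 probes (1.14%) passed, against 0.79% of all probes. These were Msc, higher in RA, where 0.494% of all probes passed, and 1 probe of Mef2c, higher in LA, where 0.296% of all probes passed. In SA_12, 1 of 176 probes (0.568%) passed, against 0.63% of all probes, and it was Msc again, higher in RA. The study had already listed Msc as higher in RA in these datasets, so that its passing was known beforehand. Without Msc, 1 of 175 probes (0.571%) passed in MF1_12 and 0 of 175 in SA_12. With Msc counted, the share of members that passed was near that of the array in either dataset. The median size of the log2 difference over the members was 0.05 in each dataset, against 0.06 in MF1_12 and 0.05 in SA_12 over all probes. Sizes above 0.25 were found for 12 of 176 member probes in MF1_12 and 7 in SA_12, and for 2278 and 1509 of all 25697 probes. The interaction of side and dataset, fitted over all 16 arrays, passed at an adjusted p under 0.05 for 0 of 176 probes, against 0.00778% of all probes. At an unadjusted p under 0.05 it counted 6 member probes, while 7.37% of all probes did so.

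**Figure D1:**
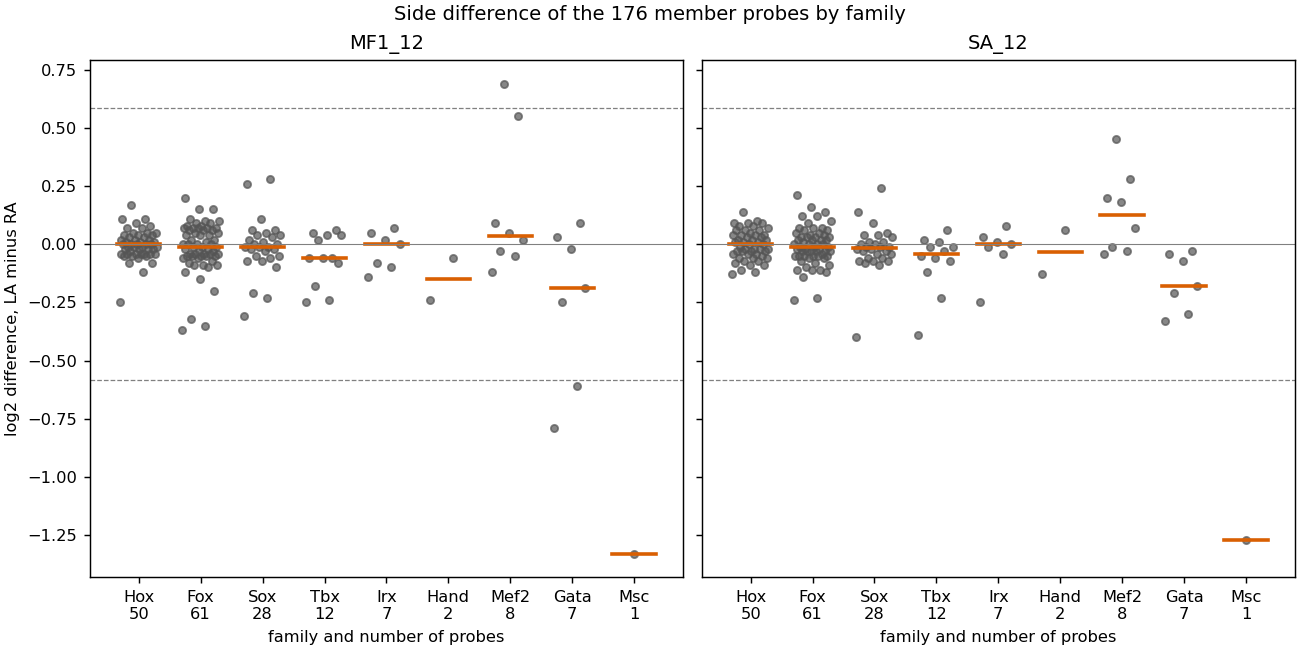
Log2 difference LA minus RA (y axis) of every member probe (1 point each) by family (x axis, with the number of probes), in MF1_12 and SA_12. Orange bars are family medians and dashed lines mark a fold of 1.5. Msc lies lowest at -1.33 and -1.27, the Gata probes lie mostly below 0 with medians of -0.19 and -0.18, and the Hox probes lie close to 0.

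A weaker sign is whether the 4 LA and the 4 RA arrays overlap. In MF1_12 they did not overlap for 19 member probes (10.8%), 7 higher in LA and 12 higher in RA, against 6.99% of all probes (3.22% and 3.77%). In SA_12 they did not overlap for 10 member probes (5.68%), 3 higher in LA and 7 higher in RA, against 7.17% of all probes (3.46% and 3.71%). At an adjusted p under 0.05 without the fold, 4 member probes counted in MF1_12 and 1 in SA_12, against 1.35% and 2.02% of all probes. At an unadjusted p under 0.05, 22 member probes (12.5%) counted in MF1_12, 6 with LA and 16 with RA higher, against 10.9% of all probes (5.27% and 5.67%), and 18 (10.2%) in SA_12, 6 and 12, against 12.6% (6.16% and 6.47%). Only Msc, Gata6 and 1 probe of Tbx20 were separated on the same side in both datasets, all with RA higher, where 1.36% of all probes were separated in this way. No member probe was separated on opposite sides, which was rare on the array as well, with 15 of all 25697 probes. The difference had the same sign in both datasets for 109 of 176 member probes (61.9%), against 55.6% of all probes.

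Msc (chromosome 1), a bHLH factor known as a repressor of muscle genes, was the member that differed most. In MF1_12 its 4 LA arrays read -0.86, -1.20, -0.74 and -0.29 and its 4 RA arrays 0.58, 0.42, 0.38 and 0.84. In SA_12 the LA arrays read -1.01, -0.61, -0.94 and -0.71 and the RA arrays 0.82, 0.27, 0.59 and 0.13. Every RA array lay above 0 and every LA array below it, so that the groups were apart in both datasets. Msc was 2.51-fold higher in RA in MF1_12 (log2 difference -1.33, SE 0.18, n = 4 and 4, adjusted p = 0.0112, limma) and 2.41-fold in SA_12 (-1.27, SE 0.15, adjusted p = 0.00172). The difference between the datasets was -0.06, with a 95% interval of -0.60 to 0.48 (adjusted p = 0.976). Msc has 1 probe on the array. With the variance of each probe alone, without limma's moderation, its adjusted p was 0.117 in MF1_12 and 0.0844 in SA_12.

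Some other bHLH genes and marker genes of other cell types differed too, in either direction. Among 18 bHLH factors and their inhibitors, 17 were measured, of which 5 genes passed in MF1_12 (Hey1, Tcf21, Id1, Id2 and Id3) and 4 in SA_12 (Hey1, Tcf21, Id2 and Id3), all higher in RA and 0 higher in LA. Over all probes, 0.494% and 0.342% passed with RA higher. The study already lists these 5 genes as higher in RA, and the lists were made with its results known. Its shared genes also hold Tmem108, Vwf, Hdc, Cd163 and Reln, named below. They hold Ccl21b too, with the folds found here for the Ccl21a probe (4.22 and 2.72). The study's own test called Hdc and Cd163 in MF1_12 and Id1 in SA_12 as well. These did not pass here (adjusted p = 0.194, 0.0981 and 0.0596, limma). Hey1, a repressor downstream of Notch, had log2 differences of -1.35 and -1.17, and Tcf21, a factor of cardiac fibroblasts and of the cells that give rise to them, -0.96 and -0.98. The median over the bHLH genes was -0.16 in MF1_12 and -0.02 in SA_12, against 0.00 over all probes, so that the middle of the list lay near 0 in SA_12. Of 8 endocardial genes, Tmem108 and Vwf passed in each dataset, higher in RA, and the mean of the list ran from -0.54 to -0.24 in the LA and from 0.18 to 0.34 in the RA arrays of MF1_12, and from -0.22 to -0.14 and from 0.07 to 0.28 in SA_12. Of 7 measured epicardial and mesothelial genes, Upk3b and Wt1 passed in MF1_12 and 0 in SA_12, with list means of -0.34 to -0.14 in LA against 0.07 to 0.31 in RA in MF1_12, and of -0.23 to 0.00 against -0.14 to 0.40 in SA_12. For mast cells, 0 of 8 measured genes passed in MF1_12 and 2 in SA_12 (Cpa3 and Hdc, higher in RA), with list means of -0.16 to -0.06 against -0.01 to 0.18, and of -0.22 to -0.08 against 0.05 to 0.36. For macrophages, 0 of 6 measured genes passed in MF1_12 and 3 in SA_12 (Cd163, Lyz2 and C1qb, higher in RA), with list means of -0.27 to 0.56 against 0.07 to 0.28, and of -0.35 to 0.01 against 0.08 to 0.24. Mrc1 of this list went the other way without passing, at 0.77 in MF1_12 and 0.56 in SA_12 (adjusted p = 0.235 and 0.0455, limma). Lymphatic endothelial genes went both ways: of 6 measured, Reln and Ccl21a passed higher in LA in each dataset and Lyve1 higher in RA in SA_12, with list means of 0.34 to 0.46 in LA against -0.12 to 0.09 in RA, and of 0.11 to 0.32 against -0.33 to -0.11. Of 8 fibroblast genes, 0 passed in MF1_12 and Lum in SA_12, higher in LA, with list means of -0.02 to 0.55 against -0.09 to 0.15, and of -0.09 to 0.19 against -0.13 to 0.05. In this list 6 genes lay above 0 in MF1_12 and 5 in SA_12, while Dcn and Dpt lay below 0 in each, Dpt at -0.42 and -0.40. The part of these cells in the differences of Msc and of the Gata genes was not tested. In whole atria, fewer cells of a type and less RNA per cell cannot be told apart.

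The Gata family, zinc finger factors of heart, blood and endothelium, had values on the RA side in most of its probes. Of its 7 probes, 5 in MF1_12 and 7 in SA_12 had values below 0, with medians of -0.19 and -0.18, where the median over all probes was 0.00. At an unadjusted p under 0.05, 4 of 7 probes counted in each dataset, all with RA higher, against 5.67% and 6.47% of all probes on that side. None passed the test, since 0 of 7 reached an adjusted p under 0.05 in either dataset. The mean of the 7 probes ran from -0.23 to -0.02 in the LA and from 0.07 to 0.19 in the RA arrays of MF1_12, and from -0.08 to -0.05 against 0.06 to 0.12 in SA_12, so that no LA array reached an RA array.

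Gata2 (chromosome 6), which is needed for blood stem cells and mast cells and acts in endothelium, had the second largest difference of the members in MF1_12. Its LA arrays there read -0.75, -0.85, -0.20 and -0.09 and its RA arrays 0.21, 0.46, 0.28 and 0.32. In SA_12 the LA arrays read -0.02, 0.00, -0.25 and -0.21 and the RA arrays 0.19, 0.32, 0.00 and 0.20. The groups were apart in MF1_12, where LA replicates 1 and 2 were far below the other LA arrays, and touched at 0.00 in SA_12. The log2 difference was -0.79 (SE 0.17, adjusted p = 0.0702, limma) in MF1_12 and -0.30 (SE 0.08, adjusted p = 0.119) in SA_12. It was larger in MF1_12 by 0.49 in size, a difference of -0.49 with a 95% interval of -0.92 to -0.07, at an unadjusted p of 0.0257 and an adjusted p of 0.616.

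Gata6 (chromosome 18), a factor of heart muscle and of the outflow vessels, was separated in both datasets. In MF1_12 the LA arrays read -0.51, -0.28, -0.08 and 0.08 and the RA arrays 0.15, 0.48, 0.55 and 0.46. In SA_12 the LA arrays read -0.07, -0.27, -0.30 and -0.05 and the RA arrays 0.05, 0.27, 0.06 and 0.26. The gap between the groups was narrow, since the highest LA and the lowest RA array of MF1_12 stood at 0.08 and 0.15. The log2 difference was -0.61 (SE 0.13, adjusted p = 0.0753, limma) in MF1_12 and -0.33 (SE 0.08, adjusted p = 0.0697) in SA_12. With the replicate number as a block, Gata6 passed in MF1_12 with the same difference of -0.61 at an adjusted p of 0.0105. The LA minus RA differences of the same-numbered arrays were -0.67, -0.75, -0.63 and -0.38, with RA higher in 4 of 4 pairs.

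Gata5 (chromosome 2), known in the endocardium and the valves, had LA arrays of -0.21, -0.08, -0.08 and -0.20 and RA arrays of 0.07, 0.18, 0.10 and 0.10 in MF1_12. In SA_12 the LA arrays read -0.12, -0.16, 0.01 and -0.09 and the RA arrays -0.01, 0.15, 0.09 and 0.11. The groups were apart in MF1_12 and overlapped in SA_12 by a single array on each side. The log2 differences were small, at -0.25 (SE 0.05, adjusted p = 0.056, limma) and -0.18 (SE 0.05, adjusted p = 0.165). Gata4 (chromosome 14), a partner of Gata6 in heart muscle, had -0.02 in MF1_12 (95% interval -0.25 to 0.20) and -0.21 in SA_12 (-0.34 to -0.08, adjusted p = 0.126), where every RA array was above every LA array. Gata3, a factor of T cells and of the nervous system, had -0.19 and -0.07. The 2 probes of Gata1, the factor of red blood cells, had 0.09 and 0.03 in MF1_12, where no other Gata probe lay above 0, and -0.03 and -0.04 in SA_12.

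**Figure D2:**
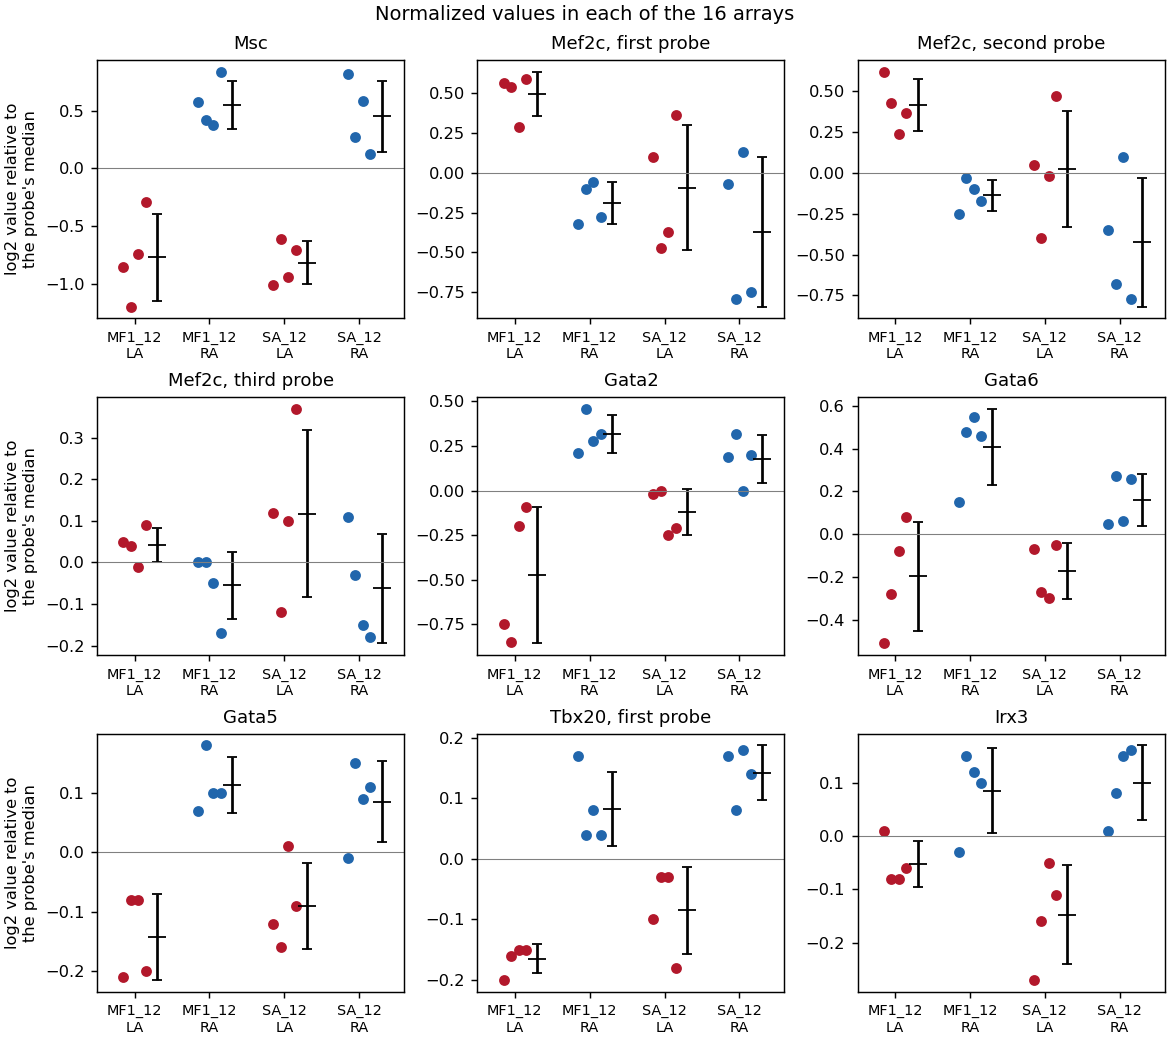
Deposited log2 values relative to the median of each probe (y axis, own scale in every panel) of the leading members in each of the 16 arrays, LA in red and RA in blue, with the mean and SD of 4 arrays in black. RA is above LA for Msc in both datasets, the first and second Mef2c probes are apart in MF1_12 with SDs of 0.09 to 0.16 and overlap in SA_12 with SDs of 0.35 to 0.47, and Gata2 overlaps only at 0.00 in SA_12.

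Mef2c (chromosome 13), a MADS box activator of muscle genes, was the member with the largest difference to the left. It has 3 probes on the array. In the first of them the MF1_12 LA arrays read 0.56, 0.54, 0.29 and 0.59 and the RA arrays -0.32, -0.10, -0.06 and -0.28. In SA_12 the LA arrays of this probe read 0.10, -0.47, -0.37 and 0.36 and the RA arrays -0.07, -0.79, 0.13 and -0.75. The atria were well apart in MF1_12 and overlapped in SA_12, where 2 LA and 2 RA arrays were far below the rest. The first probe was 1.61-fold higher in LA in MF1_12 (log2 difference 0.69, SE 0.09, n = 4 and 4, adjusted p = 0.00718, limma) and had 0.28 in SA_12 (SE 0.24, adjusted p = 0.739), with a difference between the datasets of 0.41 (95% interval -0.20 to 1.02, adjusted p = 0.802). The SA_12 value moved with single arrays and was 0.12 without LA replicate 4 and 0.44 without RA replicate 3. The call in MF1_12 was lost when the spread was shared with SA_12 in a fit of all 16 arrays (adjusted p = 0.0969) and with the variance of the probe alone (0.076).

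The second Mef2c probe read 0.62, 0.43, 0.24 and 0.37 in the LA and -0.25, -0.03, -0.10 and -0.17 in the RA arrays of MF1_12. In SA_12 it read 0.05, -0.40, -0.02 and 0.47 in LA and -0.35, -0.68, 0.10 and -0.77 in RA. LA replicate 4 was the highest of SA_12 and RA replicates 2 and 4 the lowest in each of these 2 probes. The log2 difference was 0.55 in MF1_12 (SE 0.09, adjusted p = 0.0191, limma), a fold of 1.47 that stayed just under 1.5, and 0.45 in SA_12 (SE 0.21, adjusted p = 0.412). The third probe had 0.09 (95% interval -0.02 to 0.21) and 0.18 (-0.04 to 0.40), the same sign with a smaller size, and with its 3 probes averaged Mef2c did not pass in MF1_12. The other Mef2 genes bind the same element. The 3 probes of Mef2a had values between -0.05 and 0.02 in MF1_12 and between -0.04 and 0.20 in SA_12. The first of them, at 0.20, was the 1 Mef2 probe whose arrays did not overlap in SA_12, with LA higher (adjusted p = 0.176, limma). Mef2b had -0.12 and 0.07 and Mef2d 0.05 and -0.01.

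The sequence before annotated transcript starts is shown for Mef2c, since it is the member that passed with LA higher. The 250 bases before 3 starts are given 5′ to 3′ from RefSeq (GRCm38.p6), in lower case with motifs in capitals. Motifs were searched on both strands. They were AGATAA for the Gata factors, AGGTGT for the T-box factors, TGTTTAC for the forkhead factors and AACAAT for the Sox factors. The homeodomain factors were searched for by TAATTA, the bHLH factors by the E-box CANNTG and the Mef2 factors by the MEF2 element. The T-box letters may overlap an E-box.
Mef2c start 1, chr13:83503784-83504033, plus strand: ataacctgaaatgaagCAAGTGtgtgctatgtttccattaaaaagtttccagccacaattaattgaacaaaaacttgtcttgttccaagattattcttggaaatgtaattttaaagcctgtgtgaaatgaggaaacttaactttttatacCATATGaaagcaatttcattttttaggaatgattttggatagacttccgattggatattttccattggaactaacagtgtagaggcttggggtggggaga
Mef2c start 2, chr13:83523406-83523655, plus strand: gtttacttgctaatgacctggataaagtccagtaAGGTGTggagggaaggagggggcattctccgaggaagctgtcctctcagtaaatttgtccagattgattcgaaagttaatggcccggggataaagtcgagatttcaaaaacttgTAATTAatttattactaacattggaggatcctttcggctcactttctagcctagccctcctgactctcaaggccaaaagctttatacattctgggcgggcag
Mef2c start 3, chr13:83573357-83573606, plus strand: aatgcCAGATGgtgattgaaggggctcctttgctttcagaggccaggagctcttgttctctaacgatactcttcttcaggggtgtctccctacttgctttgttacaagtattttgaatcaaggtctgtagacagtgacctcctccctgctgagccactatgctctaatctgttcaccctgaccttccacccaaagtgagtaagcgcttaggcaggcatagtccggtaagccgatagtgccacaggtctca
The first window holds 2 E-boxes, the second an AGGTGT and a TAATTA, and the third 1 E-box. An E-box was in 66.2% of all 32817 windows of this length, AGGTGT in 11.8% and TAATTA in 4.85%, so an E-box sets a window apart from few others. Over the 94 windows of the 77 members that RefSeq's table held, 58 had an E-box, 8 TAATTA, 7 AGGTGT, 6 AGATAA, 3 AACAAT, 3 the MEF2 element and 2 TGTTTAC. In all windows AGATAA was found in 9.99%, AACAAT in 9.42%, TGTTTAC in 3.16% and the MEF2 element in 2.92%. These matches describe the letters only.

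Of the T-box genes, Tbx20 (chromosome 9), a regulator of heart muscle and of the cushions that form the valves, had a probe that was separated in both datasets. In its first probe the LA arrays of MF1_12 read -0.20, -0.16, -0.15 and -0.15 and the RA arrays 0.17, 0.04, 0.08 and 0.04. In SA_12 they read -0.10, -0.03, -0.03 and -0.18 in LA and 0.17, 0.08, 0.18 and 0.14 in RA. All LA arrays were below 0 and all RA arrays above it. The log2 difference was -0.25 in MF1_12 (SE 0.05, adjusted p = 0.0405, limma) and -0.23 in SA_12 (SE 0.05, adjusted p = 0.0572), with a difference between the datasets of -0.02 (95% interval -0.16 to 0.11). A fold of 1.19 and of 1.17 left it under the fold of 1.5. The second probe had -0.24 and -0.39 (adjusted p = 0.436 and 0.0834) with overlapping arrays, and the third -0.06 and -0.05, so that the 3 probes shared a sign but not a size. Tbx2, a repressor in the muscle of the atrioventricular canal, had -0.18 in MF1_12 with the arrays apart and -0.01 in SA_12. The 12 Tbx probes had medians of -0.06 and -0.04 and 0 passed the test in either dataset.

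Windows before the starts of Tbx20 and of Gata2, both with values below 0 in each dataset, are shown beside those of Mef2c in the same way, and had 0 matches to the motifs searched.
Tbx20, chr9:24774304-24774553, minus strand: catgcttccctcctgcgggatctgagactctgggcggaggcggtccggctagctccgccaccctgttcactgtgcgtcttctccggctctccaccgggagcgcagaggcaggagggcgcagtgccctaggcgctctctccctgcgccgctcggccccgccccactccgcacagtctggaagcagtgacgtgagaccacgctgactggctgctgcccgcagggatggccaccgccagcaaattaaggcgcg
Gata2 start 1, chr6:88193641-88193890, plus strand: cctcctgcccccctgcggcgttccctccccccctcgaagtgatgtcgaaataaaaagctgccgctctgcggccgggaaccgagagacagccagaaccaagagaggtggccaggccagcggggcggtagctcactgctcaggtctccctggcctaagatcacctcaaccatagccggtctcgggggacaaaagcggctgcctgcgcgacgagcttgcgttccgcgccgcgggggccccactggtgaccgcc
Gata2 start 2, chr6:88198414-88198663, plus strand: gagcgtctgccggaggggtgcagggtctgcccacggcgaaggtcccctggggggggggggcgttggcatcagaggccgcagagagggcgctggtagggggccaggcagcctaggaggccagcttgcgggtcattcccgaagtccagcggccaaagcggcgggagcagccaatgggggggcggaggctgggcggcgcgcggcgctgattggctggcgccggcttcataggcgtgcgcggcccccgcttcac

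Irx3 (chromosome 8), a homeodomain repressor known from the ventricular conduction system, was the Irx member with the largest size. Its LA arrays read 0.01, -0.08, -0.08 and -0.06 and its RA arrays -0.03, 0.15, 0.12 and 0.10 in MF1_12. In SA_12 they read -0.27, -0.16, -0.05 and -0.11 in LA and 0.01, 0.08, 0.15 and 0.16 in RA. The arrays were apart in SA_12 and overlapped in MF1_12, where RA replicate 1 lay below LA replicate 1. The log2 difference was -0.14 (SE 0.05, adjusted p = 0.37, limma) and -0.25 (SE 0.06, adjusted p = 0.0692). The study reports IRX3 as higher in RA in human atrial appendages, by RT-qPCR and by Western blot, which are other samples and measures. The Irx family as a whole had a median of 0.00 in each dataset, and its other probes lay between -0.10 and 0.08. Of the Hand genes, bHLH factors of the heart chambers, Hand2 had -0.24 and -0.13 with overlapping arrays. In the same-numbered arrays of MF1_12 its differences were -0.36, -0.32, -0.14 and -0.14, RA higher in 4 of 4 pairs, and its adjusted p of 0.497 became 0.118 with the replicate block (limma). Hand1 had -0.06 and 0.06.

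The endothelial Sox genes did not share a direction. The first probe of Sox17, a factor of arterial endothelium, read 0.03, 0.09, 0.04 and 0.14 in the LA and -0.07, -0.15, -0.27 and -0.25 in the RA arrays of MF1_12. Its second probe read 0.28, 0.23, -0.02 and 0.33 in LA and -0.03, -0.12, -0.03 and -0.10 in RA. Both probes were apart in MF1_12, with LA higher, and overlapped in SA_12. The log2 differences of the probes were 0.26 and 0.28 in MF1_12 (adjusted p = 0.0747 and 0.16, limma) and 0.09 and 0.14 in SA_12 (adjusted p = 0.742 and 0.356). Sox18, known in lymphatic and blood vessels, had -0.01 in MF1_12 (95% interval -0.27 to 0.25) and -0.40 in SA_12 (-0.75 to -0.05, adjusted p = 0.313). In SA_12 its RA arrays spread from -0.32 to 0.52 and its LA arrays from -0.53 to -0.20. Sox7 had -0.21 and -0.31 in its 2 probes in MF1_12, the first with the arrays apart (adjusted p = 0.107), and -0.07 and -0.04 in SA_12. Sox9, a factor of valve and cartilage cells, had -0.23 and -0.09. Of 11 measured endothelial genes outside the families, 5 lay above 0 in MF1_12 and 2 in SA_12, and the 1 that passed was Pecam1, the platelet endothelial adhesion molecule, higher in RA in MF1_12 by 1 of its 2 probes (-0.61, adjusted p = 0.00857, limma). Its other probe had -0.51 in MF1_12 and -0.52 in SA_12 (adjusted p = 0.164 and 0.000874, limma). Tek had -0.52 in each dataset (adjusted p = 0.0932 and 0.0264, limma). Both stayed at a fold of 1.43, under 1.5. The endothelial list means ran from -0.09 to 0.06 in LA and from 0.05 to 0.13 in RA in MF1_12, and from -0.09 to -0.04 against 0.05 to 0.17 in SA_12. Over all 28 Sox probes the median was -0.01 in each dataset and 0 passed.

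Among the 61 Fox probes 0 passed the test and the median was -0.01 in each dataset. Foxc1 (chromosome 13), a forkhead factor of vessel and mesenchymal cells, had LA arrays of -0.19, -0.15, -0.18 and -0.21 and RA arrays of 0.34, -0.06, 0.16 and 0.28 in MF1_12. In SA_12 it read 0.24, 0.34, -0.03 and -0.22 in LA and 0.25, 0.23, 0.11 and -0.20 in RA. The arrays of MF1_12 were apart, with 4 nearly equal LA values, and those of SA_12 were mixed. The log2 difference was -0.37 (SE 0.08, adjusted p = 0.0838, limma) and -0.02 (SE 0.13, adjusted p = 0.984), and MF1_12 minus SA_12 gave -0.35 (95% interval -0.71 to 0.01, adjusted p = 0.692). Foxc2, its close relative in vessels and lymphatics, had -0.05 and 0.21, the latter with LA arrays above RA arrays (adjusted p = 0.144). Foxj3 has 6 probes, which ran from -0.35 to 0.07 in MF1_12 and from -0.23 to 0.16 in SA_12, on both sides of 0 in each dataset. Foxp3, the factor of regulatory T cells, had 3 probes between -0.09 and 0.06 in MF1_12 and between -0.14 and -0.03 in SA_12. Foxo1, Foxo3 and Foxp1, factors of heart muscle growth and metabolism, had -0.12, -0.01 and 0.11 in MF1_12 and -0.11, 0.07 and -0.07 in SA_12.

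Hox genes, which record position along the body axis, had small differences throughout. Their 50 probes had a median of 0.00 in each dataset, ran from -0.25 to 0.17 in MF1_12 and from -0.13 to 0.14 in SA_12, and 0 passed the test. Of the probes, 26 lay above 0 in each dataset. Each cluster lay near 0, with medians of 0.00 and -0.01 over the 17 Hoxa probes, -0.02 and 0.04 over the 13 Hoxb probes, -0.01 and 0.00 over the 11 Hoxc probes and 0.03 and 0.00 over the 9 Hoxd probes. The arrays did not overlap for 2 Hox probes in MF1_12, Hoxd8 and Hoxc13, both with LA higher (4.0% of the family against 6.99% of all probes), and for Hoxd1 in SA_12 (2.0% against 7.17%), shares below those of the array. Hoxd8 (chromosome 2) had 0.17 in MF1_12 (SE 0.05, adjusted p = 0.191, limma) and 0.02 in SA_12. Hoxd1 (chromosome 2) had -0.08 and 0.14, and its difference between the datasets of -0.22 (95% interval -0.36 to -0.07) had the smallest unadjusted p of the members, 0.0056, with an adjusted p of 0.428. Whether a Hox gene was expressed in the atria cannot be read from these values.

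**Figure D3:**
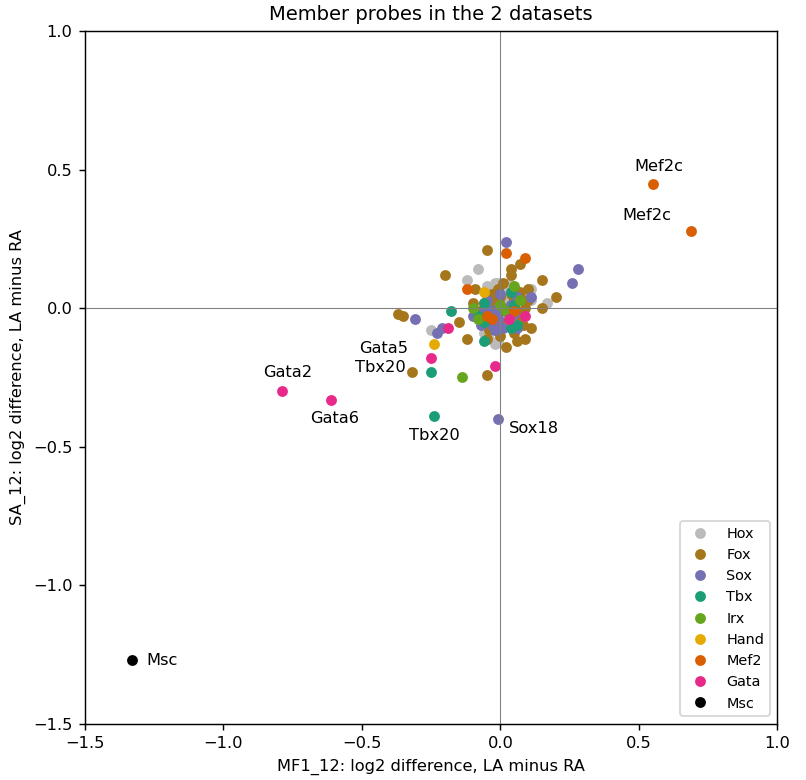
Log2 difference LA minus RA of every member probe in MF1_12 (x axis) against SA_12 (y axis), coloured by family. Msc stands alone at -1.33 and -1.27, the first 2 Mef2c probes lie at upper right, Gata2, Gata6, Gata5 and 2 probes of Tbx20 at lower left, and most other probes cluster around 0.

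The probes of a gene did not always have the same sign. Of 34 members with more than 1 probe, all probes pointed to the same side in 11 genes in MF1_12 and in 15 in SA_12. Mef2c, Tbx20 and Sox17 were among them in each dataset, and Foxj3 and Mef2a were not. Among 24 other atrial and nodal regulators, which include Tbx3, Tbx5 and Tbx18, 22 were measured. Of these, 4 genes passed in MF1_12 (Hey1, Tcf21, Wt1 and Smarcd3) and 3 in SA_12 (Hey1, Tcf21 and Smarcd3), all higher in RA. The study already lists Hey1, Tcf21 and Smarcd3 as higher in RA in these datasets. The homeodomain factor Nkx2-5, which acts with Gata4 in heart muscle, had -0.02 and 0.07. The median over these regulators was -0.10 in MF1_12 and -0.03 in SA_12, against 0.00 over all probes.

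**Figure D4:**
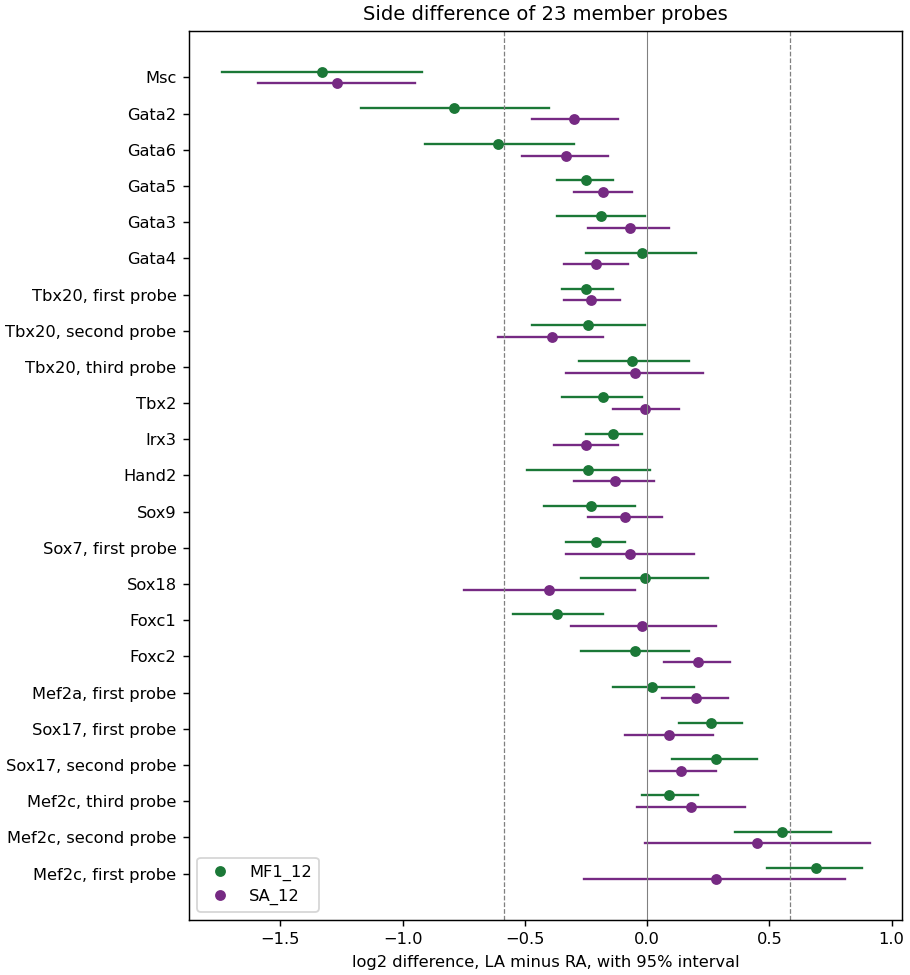
Log2 difference LA minus RA (x axis) of leading member probes with its 95% interval from limma, in MF1_12 (green) and SA_12 (purple), with dashed lines at a fold of 1.5. Only the intervals of Msc lie wholly beyond a fold of 1.5 in both datasets, and those of the first 2 Mef2c probes are wider in SA_12 than in MF1_12.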

How the data were processed

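Signals of 16 Illumina MouseRef-8 arrays were extracted by the authors with Genome Studio, quantile normalized within each dataset in GeneSpring and set to each probe's median. The resulting log2 values, as deposited, were used as they are. The signals before normalization were not used, since their 16 columns carry names that match no sample. Symbols came from the platform annotation, which named 23978 of 25697 probes.

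For each dataset, LA minus RA was fitted by lmFit and eBayes of limma 3.58.1 (R 4.3.3) over all probes, with Benjamini-Hochberg adjustment. The interaction was fitted on all 16 arrays as 4 groups. The fit was tested on simulated data. Replicates are numbered in the labels, and p-values measure the spread between these mice. LA and RA arrays of the same number deviated together in MF1_12 (correlations of 0.23 to 0.499 across probes), so that the numbers were taken to pair its samples. In SA_12 they did not deviate together, which leaves its pairing unknown.

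The members and gene lists were chosen with earlier results of these data known. Genes were named where they passed, had the largest moderated t of their family in a dataset, did not overlap on the same side in both datasets, or are known in the heart (37 probes of 29 genes). Gata1, Gata2, Gata3, Foxj3, Foxp3, Hoxc13 and Sox7 were added after their values were seen. Alternatives were the replicate block, the variance of each probe, adjusted p alone, named probes alone, array weights, averaged probes, centred arrays, 1 fit of 16 arrays and leaving out each array.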

Additional observations from a re-analysis of the deposited data

Results flagged for a closer look

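Of 84 groups of 4 arrays examined (21 probes in 4 groups each), 3 held an array far from the other 3 by Dixon's test, which chance gives in about 1 in 20 groups. For Hoxd1 in MF1_12, RA replicate 1 read -0.02 and the other RA arrays 0.07. For the first probe of Sox17 in SA_12, LA replicate 4 read -0.19 and the others 0.12 to 0.17. For Sox18 in SA_12, LA replicate 2 read -0.53 and the others -0.24 to -0.20.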

How the results depend on the processing

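In MF1_12, 2 member probes passed as reported, 0 with the variance of each probe alone, 4 at an adjusted p alone (which adds the first probe of Tbx20 and the second of Mef2c), 1 gene with probes averaged, and 2 to 3 when each array in turn was left out (2 without LA replicate 2). With the replicate block, which pairs MF1_12, 3 passed (Gata6 added), with array weights 3 (Gata2 added, adjusted p = 0.0474), and in 1 fit of 16 arrays 3 (Msc, Gata2 at 0.00514 and Gata6 at 0.00811, without Mef2c). Gata2 also passed without LA replicate 4 (0.0388) and the second Mef2c probe without LA replicate 3 (0.0202) or RA replicate 2 (0.0405). In SA_12, 1 member passed as reported and 0 with the variance of each probe alone, and 1 under every other alternative run. The difference between datasets counted 0 members under every alternative run. Of all probes, 203 passed in MF1_12, and 51 with the variance of each probe alone, 346 at an adjusted p alone, 292 with the block and 117 to 289 with an array left out. The lowest counts came without RA replicate 3 (117), LA replicate 1 (118), RA replicate 4 (131) and RA replicate 1 (135), and the highest without LA replicate 2. In SA_12 162 passed, and 37 with the variance of each probe alone, 518 at an adjusted p alone, 165 with the block and 134 to 196 with an array left out. In SA_12 the arrays of the same number did not deviate together (correlations of -0.112 to 0.138), which cannot show whether they share a mouse. The block changed no call of a named probe there. The highest correlations in SA_12 were between different numbers, LA replicate 2 with RA replicate 1 (0.33) and LA replicate 1 with RA replicate 2 (0.231). Which SA_12 arrays share a mouse was not tested.

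Differences near 0 changed sign with an array left out: Sox18 in MF1_12 (-0.07 to 0.07, and 0.04 with array weights), Foxc2 in MF1_12 (-0.10 to 0.04), Gata4 in MF1_12 (-0.11 to 0.03), the first probe of Mef2a in MF1_12 (-0.01 to 0.09), the third of Tbx20 (-0.12 to 0.01 in MF1_12 and -0.12 to 0.06 in SA_12), Foxc1 in SA_12 (-0.11 to 0.08) and Hoxd8 in SA_12 (-0.03 to 0.08). Msc ran from -1.49 to -1.19 in MF1_12 (adjusted p = 0.00508 to 0.0477, limma) and from -1.38 to -1.15 in SA_12 (0.00183 to 0.00948). The Gata median ran from -0.23 to -0.13 and from -0.21 to -0.16. The causes were not tested. The planned normalization of the raw signals and the filter on detection were not run, since their columns could not be tied to samples, so that probes at background could not be left out.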
